A study of Rattus norvegicus with 6 samples.

Results

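Antisense clusters are defined here as non-coding transcript clusters of a rat transcriptome array whose span overlaps, by at least 1 base, a protein-coding cluster on the opposite DNA strand and none on the same strand. The choice used only the positions, strands and locus types of the deposited annotation, and no measured value. It gave 7055 antisense clusters among the 68842 transcript clusters of the array, or among its 25624 main non-coding clusters. A further 734 main non-coding clusters overlapped coding clusters on both strands and were not included. The array measured dorsal root ganglia, the clusters of sensory neurons and glia beside the spinal cord, of male Sprague-Dawley rats. In the diabetic group, 3 rats received 65 mg/kg streptozotocin, a toxin of the insulin-producing beta cells, by intraperitoneal injection. In the control group, 3 rats received citrate buffer, and both groups were sampled 8 weeks after the injection. Rats weighed 180 to 220 g, streptozotocin-treated rats below 16.7 mM glucose at week 1 were excluded, and L3 to L6 ganglia of both sides were pooled per rat, so that each array is a separate animal and each group mean below rests on n = 3.

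RNA made from the strand opposite to a gene can pair with the sense transcript, and transcription through the gene can affect polymerases coming the other way. Some antisense RNAs bring chromatin-modifying complexes to a promoter and silence the gene, as in imprinted loci. In sensory ganglia, an antisense RNA to the potassium channel gene Kcna2 is known from nerve injury in rats, where it lowers Kcna2 and raises neuronal excitability. Other antisense RNAs are transcribed from the gene's own start region in the opposite direction and follow its activity.

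The 7055 antisense clusters formed 7736 pairs with 4996 coding genes. Of them, 6435 overlapped 1 gene and 620 overlapped 2 or more, and 3795 genes (76.0%) had a single antisense cluster. The antisense cluster lay within the span of the gene in 5401 pairs. In 1250 pairs it crossed only the 5′ end of the gene (head to head), in 870 pairs only the 3′ end (tail to tail), and in 215 pairs the gene lay within the antisense cluster. The median span was 3387 bp, with a range from 25 to 759372 bp, and the median cluster was read by 30 probes. Exon positions are not used here, so that an overlap can lie in an intron of either transcript. The annotation of 4761 clusters came from mouse transcripts placed on the rat genome, and 1747 came from the Rat Genome Database. A further 252 came from AceView, 191 from Chalmel and 97 from NONCODE for rat.

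Part of these overlaps rests on very long spans that the annotation gives to some coding genes. Srsf5, a splicing factor gene, was listed with a span of 93.5 Mb and thereby took in 332 antisense clusters. Vom2r7 was listed at 32.2 Mb with 127, and Obp1f at 38.5 Mb with 57. In all, 93 coding clusters spanned over 1 Mb, and 747 antisense clusters overlapped no gene of ordinary span. When the definition was applied without those 93 spans, the 747 were lost and 307 others, no longer excluded by a same-strand overlap, were added, which gave 6615 antisense clusters and 7018 pairs. Of these, 9 were higher and 12 lower by the looser criterion defined below, against 9 and 13 with the long spans.

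Promoters of 4 overlapped genes are shown because the results below turn on these pairs: Col1a2, Sparc and Scd differed in the same direction as their antisense cluster, and the antisense cluster of Ccdc107 covers the listed start of that gene. The antisense clusters of Col1a2, Sparc and Scd do not reach the listed start of their gene. The windows are those of RefSeq on GRCr8 and run from 250 bases before to 50 bases after the gene start, 5′ to 3′ on the gene's strand. Of 94 named overlapped genes, 72 had such a window, and Txnip had none. Capitals mark the TATA box (TATAAA or, on the other strand, TTTATA) and the CCAAT box (CCAAT or, on the other strand, ATTGG). The E-box (CACGTG on both strands) and the GC box (GGGCGG or, on the other strand, CCGCCC) were also searched and were not found in these 4 windows, and no matches overlapped each other. The Col1a2 window lies at chr4:33518307-33518606 on the plus strand, that of Sparc at chr10:40038767-40039066 on the minus strand, that of Scd at chr1:253231682-253231981 on the minus strand, and that of Ccdc107 at chr5:62545100-62545399 on the plus strand.
Col1a2: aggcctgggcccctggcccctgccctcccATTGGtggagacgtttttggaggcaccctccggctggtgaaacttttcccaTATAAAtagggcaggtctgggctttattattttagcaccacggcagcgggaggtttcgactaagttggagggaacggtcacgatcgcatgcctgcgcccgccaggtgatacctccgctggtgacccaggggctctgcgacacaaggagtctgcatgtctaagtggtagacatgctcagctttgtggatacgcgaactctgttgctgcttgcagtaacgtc
Sparc: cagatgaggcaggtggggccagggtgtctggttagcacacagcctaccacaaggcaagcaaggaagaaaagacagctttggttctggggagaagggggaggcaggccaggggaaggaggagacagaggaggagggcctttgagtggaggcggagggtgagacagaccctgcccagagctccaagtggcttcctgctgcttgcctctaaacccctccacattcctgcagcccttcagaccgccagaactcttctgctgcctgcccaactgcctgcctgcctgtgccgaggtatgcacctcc
Scd: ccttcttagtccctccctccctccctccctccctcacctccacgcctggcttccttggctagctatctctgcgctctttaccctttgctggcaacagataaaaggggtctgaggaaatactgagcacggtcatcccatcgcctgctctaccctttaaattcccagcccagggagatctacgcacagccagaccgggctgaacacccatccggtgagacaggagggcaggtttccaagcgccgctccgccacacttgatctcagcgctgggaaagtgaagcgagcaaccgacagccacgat
Ccdc107: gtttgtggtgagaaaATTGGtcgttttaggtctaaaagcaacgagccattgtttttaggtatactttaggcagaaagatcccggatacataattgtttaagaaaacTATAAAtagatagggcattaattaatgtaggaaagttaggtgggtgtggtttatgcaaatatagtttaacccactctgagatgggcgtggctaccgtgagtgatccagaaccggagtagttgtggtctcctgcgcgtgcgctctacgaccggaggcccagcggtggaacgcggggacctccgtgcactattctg
Col1a2 and Ccdc107 each held a TATA box and a CCAAT box in the orientation ATTGG, and Sparc and Scd held neither. Among 33469 RefSeq rat promoter windows of this length, 14.2% held the TATA box letters, 37.5% the CCAAT letters, 33.1% the GC box letters and 6.42% the E-box letters. These matches describe the letters of the windows only.

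Most antisense clusters read near the array's background. Background was set in each array at the 90th percentile of 1153 intron control probe sets, which lay between 6.06 and 6.67 on the log2 scale. In all 6 arrays, 236 antisense clusters (3.35%) lay above it, against 35.8% of main coding clusters and 47.9% of the 4996 overlapped genes. Per array, between 245 (control replicate 3) and 352 (diabetic replicate 1) did so. The share was 35.1% among the 97 clusters annotated from NONCODE for rat, whose median span was 577 bp. It was 1.34% among the 2975 clusters whose annotation itself calls them NONCODE antisense. Of the 259 pairs whose antisense cluster was above background, the gene was also above background in 196 (75.7%). In the other 7477 pairs, the gene was above background in 3654 (48.9%).

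The brightest antisense clusters lay near the top of the range of the array, whose highest cluster mean was 19.76, and whether signal saturates there was not tested. LOC102546568, within the sulfotransferase gene Sult2b1, had the highest mean log2 signal of all, at 19.44. It read 19.27, 19.61 and 19.06 in control replicates 1 to 3 and 19.52, 19.58 and 19.61 in diabetic replicates 1 to 3, with overlapping groups. NONRATT025751, a 52 bp cluster within the co-chaperone gene Dnajc18, read 18.64, 18.83 and 18.58 in control and 18.82, 18.82 and 18.84 in diabetic rats. The remaining 6 of the 8 brightest were NONRATT031016 in Plcxd3, NONRATT030578 in Tnni3k, NONRATT042668 in Slc26a7, NONRATT029500 in Vom2r46, NONRATT041839 in Mitf and NONRATT008826 in Map2k4. Differences for these 6 were -0.07, -0.08, -0.03, -0.13, -0.07 and -0.12 on the log2 scale, and the groups overlapped for each. Several further bright antisense clusters, chosen after their values were seen, lie opposite genes that, apart from Actb, were bright themselves. They include NONMMUG034221 opposite Actb (a cytoskeletal actin), NONMMUG020754 opposite Eef1a1 (a translation elongation factor), NCBI_Gene:100503279 opposite Ubb (a ubiquitin precursor) and MGI:5011713 opposite Tmsb4x (an actin-binding peptide). Their differences were -0.03, -0.08, -0.31 and -0.43, with unadjusted p of 0.81, 0.69, 0.23 and 0.22. NONMMUG042591 opposite Thy1 and NCBI_Gene:100862316 opposite Tubb2b went the other way, with differences of 0.28 and 0.19 (unadjusted p = 0.23 and 0.21). The Actb cluster itself had means of 9.43 in control and 9.54 in diabetic rats, below its antisense cluster at 14.68 and 14.65.

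On the mitochondrial chromosome, 4 antisense clusters lay opposite COX1, COX2, ATP6 and the ATP6 to ND4 stretch, which encode subunits of the respiratory chain and ATP synthase. All 4 were above background. KnowTID_00000031, opposite COX1, read 16.23, 15.70 and 16.42 in control and 15.56, 16.15 and 15.52 in diabetic rats. NONMMUG000267, opposite ATP6, read 16.72, 16.51 and 16.91 in control and 16.17, 16.76 and 16.08 in diabetic rats. In both, control replicate 2 was the lowest control and diabetic replicate 2 the highest diabetic array, and the groups overlapped. The mean of the antisense cluster was lower in diabetic rats by 0.37 for COX1 and 0.38 for ATP6 (unadjusted p = 0.15 and 0.091). KnowTID_00000030, opposite COX2, differed by -0.02 and NONMMUG044355, opposite the ATP6 to ND4 stretch, by -0.17 (unadjusted p = 0.94 and 0.48). COX1 and ATP6 themselves read 0.25 and 0.23 higher (unadjusted p = 0.13 and 0.16).

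The arrays as a set bear on every difference below. Array medians of the antisense clusters ran from 3.54 to 3.73, with control replicate 3 the highest, and the intron controls themselves read lower in diabetic rats by a median of -0.11. Sensory neuron markers were above background for 9 of 9 measured genes and spinal cord markers for 0 of 4, so in these 2 lists the tissue read as its label says. Skeletal muscle markers were above background for 1 of 4 genes and blood markers for 1 of 3. All 4 muscle and all 3 blood markers had a lower mean in diabetic rats. Myelinating Schwann cell markers were lower in 5 of 5 genes (mean log2 signal 10.8 to 11.01 in control and 10.4 to 10.7 in diabetic arrays). Fibroblast markers were lower in 3 of 4 genes (10.04 to 11.1 and 9.14 to 10.3), and macrophage markers higher in 3 of 4 (5.99 to 6.70 and 6.60 to 7.44), with overlapping ranges. Of the 4 macrophage markers, 2 were above background. Satellite glia markers were lower in 2 of 4 genes and endothelium markers in 0 of 4. No fold change in this bulk tissue tells fewer cells of a type from less RNA per cell. The labels name no processing batch.

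No antisense cluster passed an adjusted p under 0.05 between diabetic and control rats in limma's moderated test over all 68842 clusters, in which 4 clusters (0.00581%) did. The lowest adjusted p among the antisense clusters was 0.50. At an unadjusted p under 0.05, 424 antisense clusters (6.01%) stood out, against 7.85% of all clusters. Of these, 83 were higher in diabetic rats, with 2.73% of all clusters doing so, and 341 were lower, with 5.11% of all clusters doing so. With the added requirement of at least a 1.5-fold difference, called the looser criterion below, 9 were higher and 13 lower. Over all clusters, 0.375% were higher and 0.619% lower by this criterion, so that antisense clusters met it in 0.312% of cases against 0.994%. Among the 236 antisense clusters above background, 5 were higher and 9 lower by this criterion (5.93%). For other non-coding clusters above background, the shares were 5.21% on the same strand as a gene, 3.85% within 10 kb of one and 4.17% elsewhere. Single arrays moved the counts of 9 higher and 13 lower among all antisense clusters. They became 12 higher and 27 lower without control replicate 1, 15 and 37 without control replicate 2, and 18 and 30 without diabetic replicate 2. The 3 diabetic values lay entirely above or below the 3 control values for 810 antisense clusters (11.5%), compared with 13.3% of all clusters.

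The differences were small and their common direction depended on the scaling. Of the 7055 differences, 89.9% lay within 0.25 of 0 on the log2 scale. As deposited, the median difference was -0.06 and 67.8% of the antisense clusters had a lower mean in diabetic rats, against 61.8% of all clusters. After each array was centred on its median, the median was 0.02 and 44.0% were lower. After quantile normalization, 48.5% were lower. Among the 236 clusters above background, the median was -0.03 and 56.8% were lower as deposited, 40.3% after median centring and 61.4% after quantile normalization. The remaining non-coding clusters had similar medians, at -0.08 for the 4780 on the same strand as a gene, -0.06 for the 4173 within 10 kb of a gene and -0.08 for the 9616 others.

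**Figure D1:**
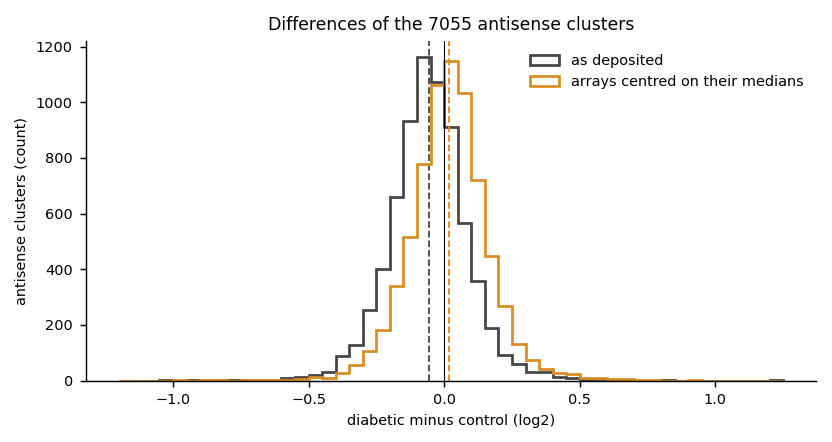
Histogram of the diabetic minus control difference (log2, x axis) of the 7055 antisense clusters (count, y axis), as deposited and after centring each array on its median; dashed lines are the medians, at -0.06 and 0.02. Nearly all differences lie close to 0, and the scaling sets the side of 0 on which the median falls.

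In 5 pairs with a gene span up to 1 Mb, the antisense cluster met the looser criterion and its gene differed in the same direction at an unadjusted p under 0.05. The pairs of Col1a2, Sparc, Scd and Serpine2 were lower in diabetic rats and that of Txnip was higher. Both partners met the looser criterion in 4 pairs (Txnip, Col1a2, Scd and Serpine2), while the Sparc gene differed by less than 1.5-fold. None of the 10 clusters passed the adjusted threshold. All 5 Schwann cell markers and 3 of the 4 fibroblast markers above were lower in the same arrays. Of the fibroblast markers, the collagen genes Col1a1 and Col3a1 were lower by -2.02 and -1.77. Lum differed by -0.40 (unadjusted p = 0.43 by limma) and Dcn was higher by 0.25. The part of these cell types in the 4 lower pairs was not tested. Control replicate 2 was the lowest control and diabetic replicate 2 the highest diabetic array in 10 of the 18 above-background antisense clusters that were lower at an unadjusted p under 0.05 (55.6%), and in 257 of 688 such clusters of the whole array (37.4%). The part of these 2 arrays in the differences was not tested.

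Txnip encodes thioredoxin-interacting protein, which is induced by glucose and limits glucose uptake. NONMMUG027336 spans 1330 bp of its opposite strand (chromosome 2, 198685642 to 198686971 in the deposited annotation). This antisense cluster read 5.86, 5.41 and 5.58 in control and 6.47, 6.16 and 6.21 in diabetic replicates 1 to 3, and every diabetic array was above every control array. Txnip itself read 11.60, 11.29 and 12.06 in control and 13.21, 12.81 and 13.43 in diabetic arrays, again without overlap. The antisense difference was 0.66 ± 0.15 (SE, unadjusted p = 0.0016, adjusted p = 0.53) and the gene difference 1.502 ± 0.23 (adjusted p = 0.50). The antisense cluster thus differed by less than the gene, by -0.84 in a limma fit of the difference between partners (unadjusted p = 0.0038). Only 2 of the 3 diabetic arrays, and no control array, put this antisense cluster above background.

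Col1a2 encodes a chain of type I collagen, and NCBI_Gene:100862129 crosses its 3′ end tail to tail over 1021 bp (chromosome 4, 29564290 to 29571817). The antisense cluster read 7.30, 6.92 and 7.24 in control and 5.84, 6.27 and 6.25 in diabetic arrays. Col1a2 read 9.89, 9.58 and 9.98 in control and 7.56, 8.70 and 8.60 in diabetic arrays. Both sets were separate, with diabetic replicate 1 the lowest array in each. All 3 control arrays, but only 1 diabetic array, put the antisense cluster above background. The differences were -1.04 ± 0.16 for the antisense cluster (SE, unadjusted p = 1.5e-04, adjusted p = 0.50) and -1.53 ± 0.29 for the gene (adjusted p = 0.53). This was the lowest p of any antisense cluster. The gap between partners was 0.49 (unadjusted p = 0.024).

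Sparc, a secreted collagen-binding glycoprotein, is overlapped by NCBI_Gene:100862216 over 949 bp (chromosome 10, 40742390 to 40743338). Antisense values were 9.77, 9.28 and 9.56 in control and 8.64, 9.13 and 8.67 in diabetic arrays. Sparc values were 17.59, 17.50 and 17.63 in control and 16.64, 17.28 and 17.18 in diabetic arrays. Diabetic replicate 2 lay nearest to the controls in both, and neither set overlapped. The antisense difference was -0.72 (unadjusted p = 0.0038) and the gene difference -0.54 (unadjusted p = 0.014). Scd, the desaturase that makes monounsaturated fatty acids, is overlapped by uc008hps.1 over 641 bp (chromosome 1, 264161868 to 264162508). That antisense cluster read 7.40, 6.999 and 7.41 in control and 6.36, 6.94 and 6.48 in diabetic arrays, against 13.35, 13.47 and 13.71 and then 12.62, 13.16 and 12.99 for Scd. Its difference was -0.68 (unadjusted p = 0.0056), that of the gene -0.59 (unadjusted p = 0.0083), and diabetic replicate 2 again lay nearest to the controls. Serpine2, a secreted inhibitor of serine proteases, is crossed at its 3′ end by NCBI_Gene:100862198. Here the antisense cluster read 5.67, 5.50 and 5.82 in control and 5.04, 5.25 and 4.45 in diabetic arrays, below the background level in each. The antisense difference was -0.75 (unadjusted p = 0.0048), and Serpine2 differed by -0.67 (unadjusted p = 0.023). For Sparc, Scd and Serpine2 the gap between partners was -0.19, -0.09 and -0.09 (unadjusted p = 0.36, 0.65 and 0.75).

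Among the 6680 pairs with gene spans up to 1 Mb, both partners had an unadjusted p under 0.05 in 30, and in 24 of these the signs agreed. Singly, 6.01% of antisense clusters and 6.22% of overlapped genes passed that threshold, against 7.85% of all clusters and 7.45% of coding clusters. Whether 30 exceeds the number that such single shares would give was not tested. The 19 pairs with both partners lower included derflu opposite Mag, an adhesion protein of myelin (-0.27 and -0.43), and the antisense cluster that carries the name Dmd opposite Dmd itself, the dystrophin gene (-0.58 and -0.69). NCBI_Gene:100861970 opposite Lgr5, a receptor for R-spondins, read -0.37 beside -0.69. The 5 pairs with both higher were those of Txnip, Optn, Bex3, Pde1c and Rpl13. For Optn, an autophagy receptor, uc029tvm.1 read 0.52 higher and the gene 0.46 higher (unadjusted p = 0.014 and 0.031). These 30 pairs were chosen by the values of both partners, so their shared sign is a description.

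In 6 of the 30 pairs the antisense cluster was lower and the gene higher. NONRATT044682 is a 275 bp cluster that meets Ccdc107 head to head over 203 bp and covers its listed start (chromosome 5, 58994680 to 58994954). It read 16.99, 16.71 and 17.64 in control and 16.70, 15.93 and 15.87 in diabetic arrays, so the groups were separate only narrowly, with control replicate 2 next to diabetic replicate 1. Ccdc107 read 9.38, 9.30 and 9.34 in control and 9.76, 9.50 and 9.70 in diabetic arrays. The antisense cluster was lower by -0.95 (unadjusted p = 0.010) and the gene higher by 0.31 (unadjusted p = 0.033), a gap of -1.26 between partners (unadjusted p = 4.8e-04). LOC102549686 opposite Gga1, a coat adaptor of the Golgi, read 7.14, 6.85 and 7.20 in control and 6.49, 6.76 and 6.30 in diabetic arrays, a difference of -0.55. Gga1 read 6.72, 7.09 and 6.76 in control and 7.42, 6.99 and 7.43 in diabetic arrays, a difference of 0.42 with overlapping groups. The other antisense clusters in this set lie opposite Chd5, a chromatin remodeller of neurons, Zfand2b, Gtf3c5 and Dr1, a repressor of transcription initiation. Their differences were -0.25, -0.46, -0.39 and -0.29, beside 0.47, 0.40, 0.40 and 0.31 for the genes.

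**Figure D2:**
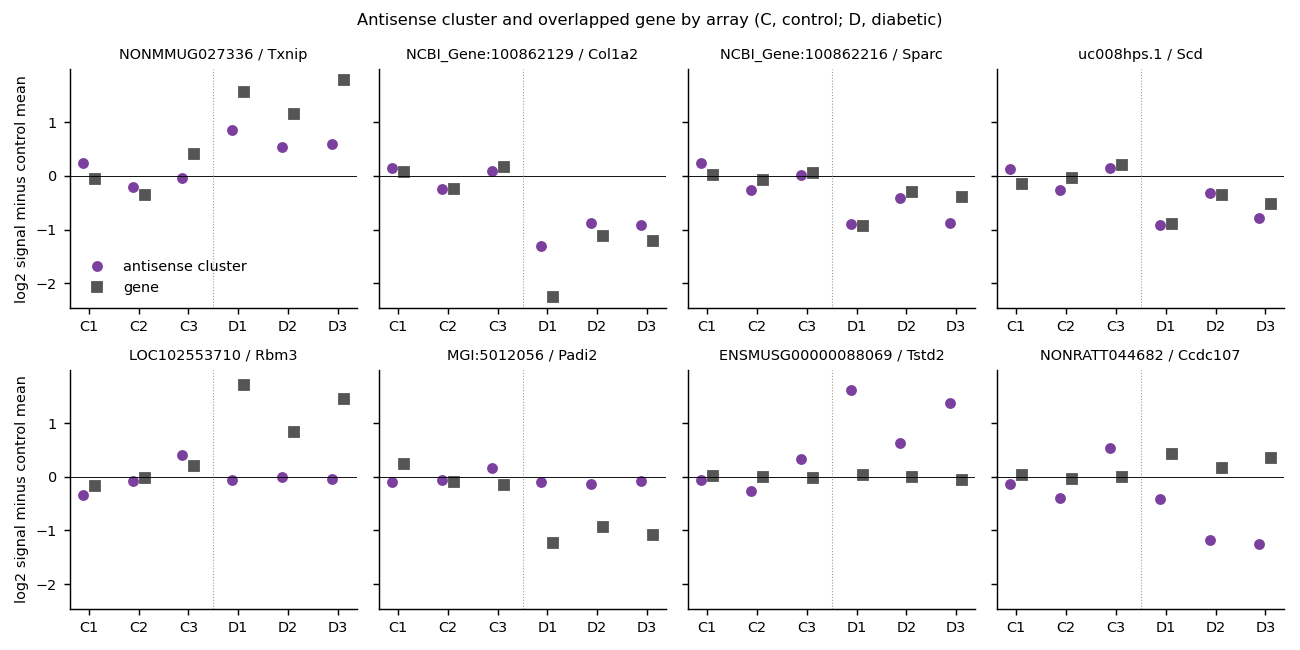
Log2 signal minus the control mean (y axis) in control (C1 to C3) and diabetic (D1 to D3) arrays (x axis) for 8 antisense clusters (circles) and their overlapped genes (squares). Partners differ in the same direction for Txnip, Col1a2, Sparc and Scd, only the gene differs for Rbm3 and Padi2, only the antisense cluster for Tstd2, and the partners differ in opposite directions for Ccdc107. The Tstd2 gene and the antisense clusters of Rbm3 and Padi2 lay below background.

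Other antisense clusters stood out over genes that read flat. Tstd2 and Fbxw4 themselves lay below background in every array, where a flat reading says little about the gene. ENSMUSG00000088069, 271 bp within Tstd2 (chromosome 5, 61714507 to 61714777), read 6.39, 6.18 and 6.77 in control and 8.06, 7.07 and 7.81 in diabetic arrays. Diabetic replicate 2 was the lowest of the diabetic arrays and still above all controls. Its difference of 1.20 ± 0.26 (SE, unadjusted p = 0.0014, adjusted p = 0.53) was the largest increase of any antisense cluster, while Tstd2 differed by -0.02. The gap of 1.22 between partners had an unadjusted p of 3.3e-04. LOC102555677, read by 14 probes, lies within the listed span of Nr3c1, the glucocorticoid receptor gene. That span is 944913 bp, just under the 1 Mb limit used above. The cluster read 11.56, 10.89 and 11.19 in control and 11.68, 11.74 and 11.99 in diabetic arrays. That is a difference of 0.59 (unadjusted p = 0.012) beside -0.18 for Nr3c1 (unadjusted p = 0.23). MGI:5011780 lies opposite Cst3, the secreted protease inhibitor cystatin C. It read 11.01, 10.71 and 11.16 in control and 11.55, 11.89 and 11.26 in diabetic arrays, a difference of 0.61 beside 0.15 for Cst3. LOC102549941, which meets the F-box gene Fbxw4 head to head over 14 bp, was higher by 0.68 (unadjusted p = 0.0053), beside 0.07 for Fbxw4. Only 2 diabetic arrays, and no control array, put LOC102549941 above background. NCBI_Gene:100861767, within Cyrib, was higher by 0.59 at a level under the background, beside 0.00 for Cyrib. The remaining clusters with higher values, LOC680919 (0.83) and KnowTID_00008045 (0.69), overlap only the stretched spans of Atf1 and Obp1f.

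ENSMUSG00000089995, within the vesicular monoamine transporter gene Slc18a1, read 5.35, 5.21 and 5.86 in control and 4.57, 4.66 and 4.74 in diabetic arrays. The groups were separate, and the difference was -0.82 (unadjusted p = 0.0010), beside -0.07 for Slc18a1. Both this antisense cluster and Slc18a1 lay below background in every array. NONMMUG017803 lies opposite LOC687679 and covers nearly its whole span. It read 8.03, 7.96 and 8.25 in control and 7.10, 7.79 and 7.34 in diabetic arrays, a difference of -0.67 (unadjusted p = 0.0060) against 0.12 for the gene. Pcf11, a subunit of the complex that cleaves pre-mRNA at its 3′ end, is crossed at its own 3′ end by NONMMUG038710 and ENSMUSG00000098066, which overlap each other on the same strand. The former read 7.03, 6.81 and 7.78 in control and 6.16, 6.91 and 6.50 in diabetic arrays, with overlapping groups. Its difference of -0.69 and that of -0.49 for the latter stood beside 0.43 for Pcf11, with gaps of -1.12 and -0.92 (unadjusted p = 2.7e-04 and 3.1e-04). The last 3 clusters with lower values were uc029rax.1 in Tmem92 (-0.63), NONRATT047865 under the spans of Srsf5 and Otof (-0.93) and LOC102547322 under that of Obp1f (-0.59). Of these 3, uc029rax.1 lay below background in every array.

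**Figure D3:**
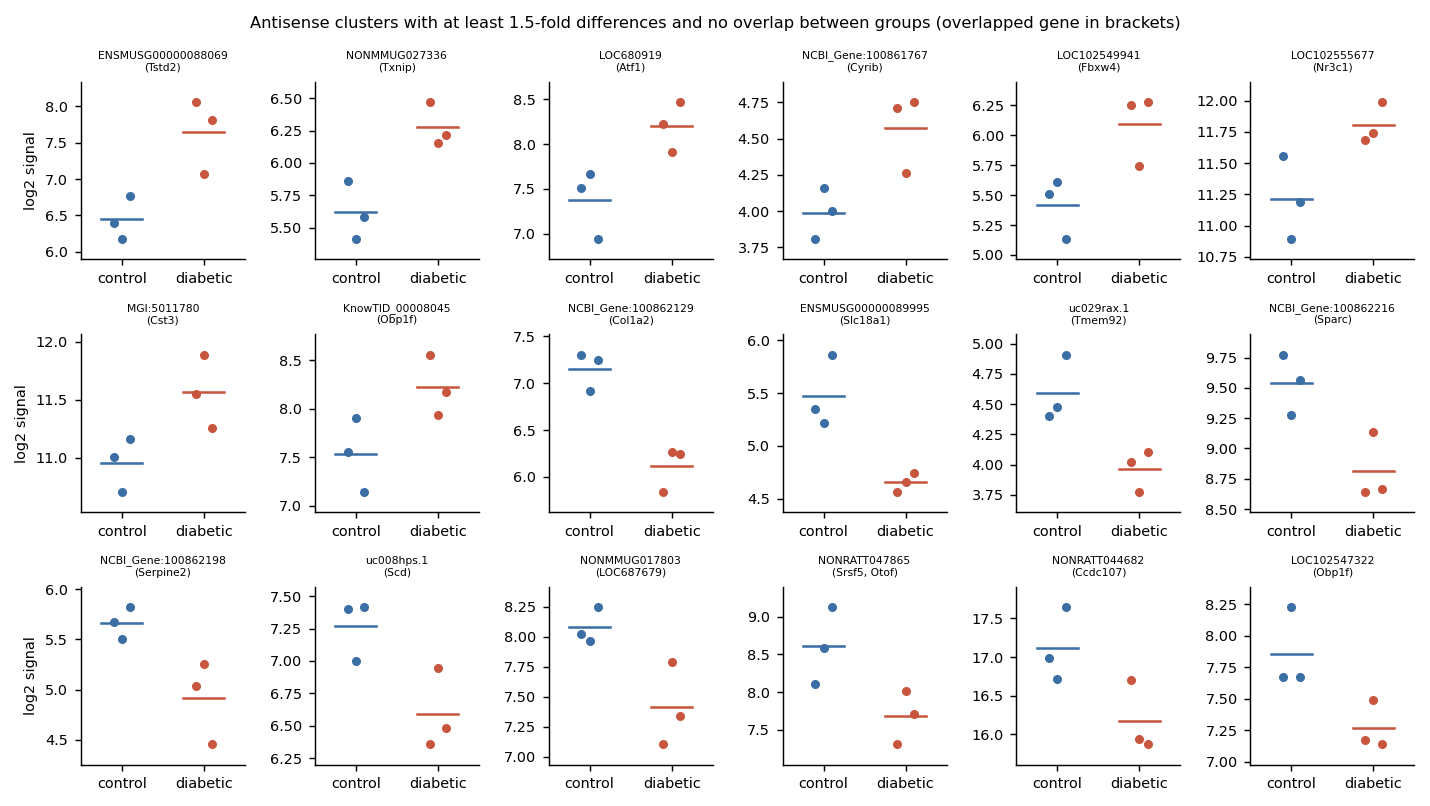
Log2 signal (y axis, own scale per panel) of the 8 higher and 10 lower antisense clusters with at least a 1.5-fold difference and separate groups; points are arrays, bars are group means of 3, and the overlapped gene is in brackets. The values of 3 control and 3 diabetic arrays do not overlap in any panel, which the choice of clusters fixes.

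The reverse case was a gene that stood out over an antisense cluster that read flat. By the looser criterion 21 overlapped genes were higher and 35 lower, which is 1.12% of them, against 1.15% of all coding clusters. Rbm3, a cold-inducible RNA-binding protein, read 7.64, 7.79 and 8.02 in control and 9.53, 8.65 and 9.27 in diabetic arrays. LOC102553710, which crosses its 3′ end over 6482 bp, read 2.86, 3.13 and 3.61 in control and 3.13, 3.20 and 3.16 in diabetic arrays, all far under the background. The gap of -1.36 had the lowest p of all antisense pairs (unadjusted p = 1.1e-04). Padi2, which deiminates arginine in proteins of myelin and other tissues, read 8.15, 7.82 and 7.77 in control and 6.67, 6.98 and 6.83 in diabetic arrays, beside -0.11 for its antisense cluster MGI:5012056. Cldn19, a tight junction protein of Schwann cells, differed by -0.87 beside -0.14 for ENSMUSG00000085203. B3gnt5, a glycosyltransferase, differed by -0.86 beside 0.13. Dusp1, a phosphatase of MAP kinases, differed by 0.87 beside 0.14, and Hoxd10, a homeobox gene of lumbar segments, by 1.08 beside -0.18. For Hoxd10 itself the groups overlapped, and only 2 diabetic arrays and no control array put it above background. The antisense clusters of all these genes lay below background, so that little antisense signal was measured there.

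Opposite the 35 genes that were lower by the looser criterion, 41 of 51 antisense clusters (80.4%) also had a lower mean, with a median of -0.12. This share fell to 56.9% (29 of 51) after median centring and to the same count after quantile normalization. Over all 7736 pairs, the antisense cluster was lower in 67.6% as deposited, 43.9% after median centring and 48.3% after quantile normalization. Opposite the genes that were higher, 16 of 25 antisense clusters had a lower mean as deposited and 10 of 25 after median centring, and 13 of 25 after quantile normalization. Without control replicate 3 the count was 10 of 25, and without control replicate 1 or control replicate 2 it was 18 of 25. Of the 51, 1 antisense cluster was above background (that of Scd), and of the 25 also 1, NONMMUG003055 opposite the imprinted zinc-finger gene Plagl1. Plagl1 differed by 0.60, with NONMMUG003055 at 0.01.

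Across all 7736 pairs, partners had the same sign in 4023 (52.0%), and Spearman's rho of the differences across pairs was 0.08. Pairs share genes and arrays, so rho is given as a description. In the 196 pairs with both partners above background, the same sign was found in 51.5% as deposited, 64.8% after median centring, 51.5% after quantile normalization and 57.7% without control replicate 3, and rho was 0.18 as deposited. As deposited, the share was 51.2% for antisense clusters within the gene, 52.3% head to head, 55.5% tail to tail and 55.3% for genes within the antisense cluster. In the fit of the difference between partners, which covered 15425 overlapping pairs of either strand, 0 pairs (0%) passed an adjusted p under 0.05, with a lowest adjusted p of 0.30. At an unadjusted p under 0.05, 635 of the 7736 antisense pairs (8.21%) stood out, against 9.94% of all overlapping pairs. Without diabetic replicate 2, 2 antisense pairs passed the adjusted threshold, those of Tstd2 and Rbm3, with gaps of 1.51 and -1.63, among 5 of all 15425 overlapping pairs that did so.

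**Figure D4:**
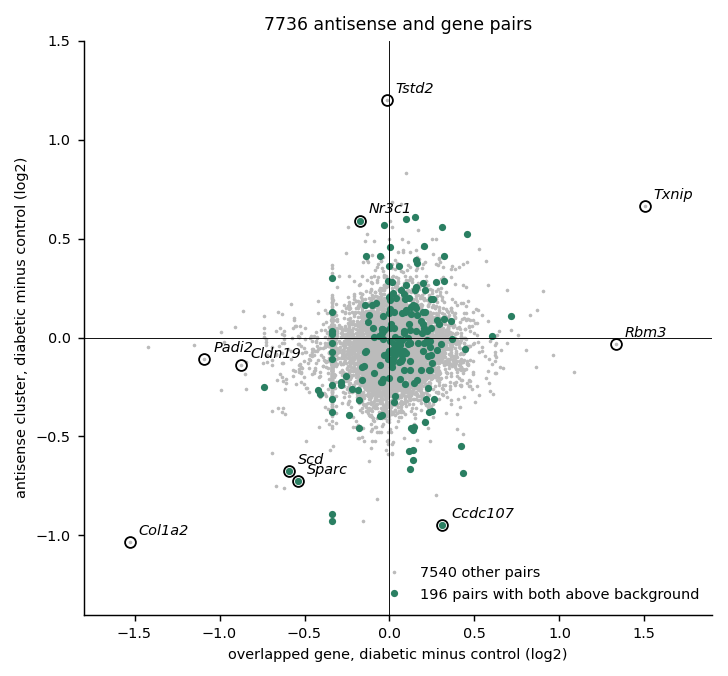
Diabetic minus control difference (log2) of the overlapped gene (x axis) and of its antisense cluster (y axis) for 7736 pairs; green points are the 196 pairs with both partners above background, and circles mark named genes. The cloud shows little common direction, with rho of 0.08, and the column at the left of 0 is the 1 gene Srsf5 with its 332 antisense clusters.

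Ion channel and receptor genes of sensory neurons carried antisense clusters of which few were above background and none met the looser criterion. Kcna2, the potassium channel with a known antisense RNA in rats, had 2. NONMMUG027597, within the gene (chromosome 2, 209844749 to 209849614), read 7.48, 7.49 and 7.47 in control and 7.68, 7.50 and 7.47 in diabetic arrays, with overlapping groups. Kcna2 read 11.85, 12.37 and 11.95 and then 12.43, 11.94 and 12.14, and the differences were 0.07 and 0.11 (unadjusted p = 0.55 for both). LOC102549479, head to head with Kcna2, lay below background at 3.20 to 3.88. The annotation does not name either as the known Kcna2 antisense RNA. Scn9a, the sodium channel Nav1.7 of pain-sensing neurons, was crossed tail to tail by LOC102553813, which read 6.25, 6.45 and 6.90 in control and 6.60, 6.50 and 6.42 in diabetic arrays (difference -0.03, beside 0.03 for Scn9a).

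By list, 28 of 42 antisense clusters opposite sodium, calcium and TRP channel genes were lower as deposited, and 14 of 42 after median centring. Of these 42, 7 lay under Tmc1, listed with a span of 2.32 Mb. Opposite potassium channel genes, 42 of 56 were lower, and 29 after centring. In these lists 1 of 42 and 2 of 56 clusters were lower at an unadjusted p under 0.05, where 5.11% of all clusters were, and none was higher. NONMMUG023180 opposite Kcnh7 and LOC102549937 opposite the GABA receptor subunit gene Gabra2 were the brightest of their lists. The latter read 13.54, 13.26 and 13.39 in control and 13.67, 13.22 and 13.04 in diabetic arrays, and both differed by less than the spread between arrays. Opposite transmitter receptors, 22 of 29 were lower, with 17 after centring. Opposite neuropeptides and their receptors only 4 clusters lay. Of these, NONMMUG008137 opposite the galanin receptor gene Galr2 and its neighbour Ten1 read 5.98, 6.11 and 5.73 in control and 6.44, 6.08 and 6.78 in diabetic arrays, below background in most arrays. Its difference was 0.50 (unadjusted p = 0.027) with overlapping groups, beside 0.25 for Galr2.

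Opposite genes of neurotrophic receptors and axon growth, 57 of 69 antisense clusters were lower as deposited, and 34 of 69 after centring, and none was above background. Of these 69, 17 lay under Ephb2, listed with a span of 2.19 Mb. Opposite genes of the neuronal cytoskeleton, synapse and axonal transport, 49 of 67 were lower, and 33 after centring. Of these 67, 9 lay under Dlg2, listed at 2.12 Mb, and 6 under Cntnap5a, listed at 12.7 Mb. Bright clusters there were NCBI_Gene:100862073 opposite Stmn3 (9.91, 9.80 and 9.62 in control, 9.90, 9.96 and 9.93 in diabetic arrays) and NONMMUG036592 opposite Vamp1, a protein of synaptic vesicle fusion. Groups overlapped in both. Opposite transcription factors of sensory neurons and Hox genes, 13 of 19 were lower, and 9 after centring. ENSMUSG00000086717, head to head with Maf, a transcription factor of touch neurons, was the brightest at 7.47 to 7.83, with a difference of 0.16 and separate groups (unadjusted p = 0.18).

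In the lists of supporting cells, 18 of 22 antisense clusters opposite myelin and Schwann cell genes were lower, and 13 after centring, with 3 of the 22 lower at an unadjusted p under 0.05, where 5.11% of all clusters were. Opposite matrix genes, 23 of 38 were lower, and 16 after centring, with those of Col1a2 and Sparc the only 2 that met the looser criterion. MGI:5012437 opposite Bgn, a matrix proteoglycan, read 7.13, 7.07 and 7.12 in control and 6.97, 7.70 and 6.98 in diabetic arrays. Bgn itself differed by 0.72 (unadjusted p = 0.071). Opposite satellite glia genes, 4 of 6 were lower, and 3 after centring. NCBI_Gene:100862060, head to head with the intermediate filament gene Vim, differed by -0.24 beside -0.29 for Vim (unadjusted p = 0.15 and 0.11).

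The remaining lists gave no antisense cluster past the looser criterion other than that of Txnip. Opposite genes of glucose, insulin and stress, 36 of 56 were lower, and 27 after centring. Of these 56, 19 lay under Hspa1a, listed with a span of 2.26 Mb. NCBI_Gene:100862111 opposite Cat, the catalase gene, was the brightest (9.50, 9.16 and 9.67 in control and 9.48, 9.30 and 9.28 in diabetic arrays). Opposite circadian clock genes, 17 of 25 were lower, and 9 after centring, and 11 of the 25 lay under Cry1, listed with a span of 1.57 Mb. Opposite immediate early genes, 4 of 11 were lower, and 3 after centring, and opposite macrophage and complement genes, 5 of 9 were lower, and 3 after centring. Opposite genes of oxidative phosphorylation, 8 of 13 were lower, and 5 after centring. For comparison, 67.8% of all antisense clusters were lower as deposited and 44.0% after centring.

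**Figure D5:**
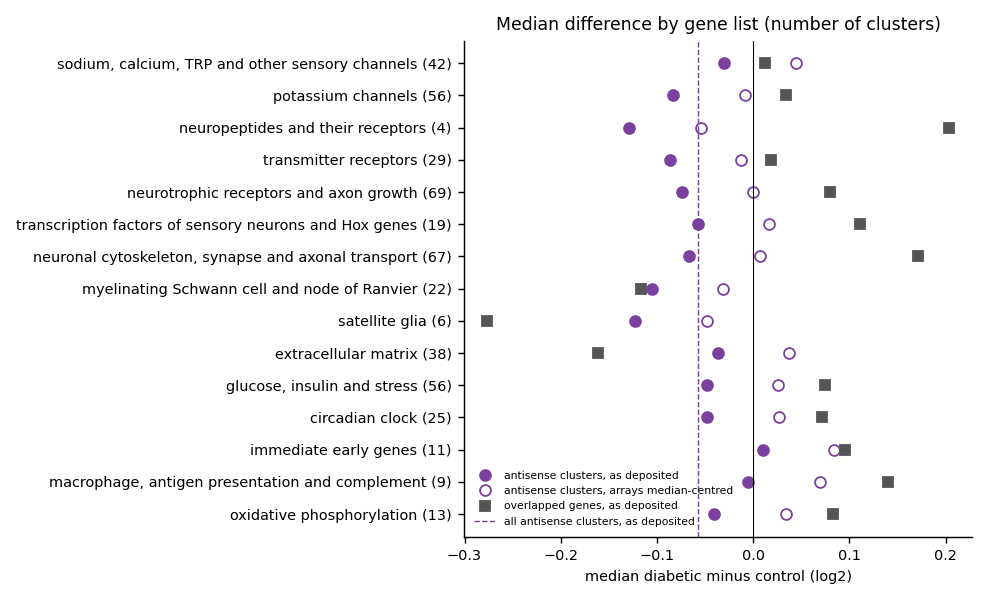
Median diabetic minus control difference (log2, x axis) of antisense clusters, grouped by the list of the overlapped gene (y axis, number of clusters in brackets), as deposited and after median centring, beside the median of the overlapped genes. Most list medians lie near the median of all antisense clusters, -0.06 (dashed line), and shift to the right by the same amount with centring.

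At loci known for antisense transcription, differences were small. Ube3a, a ubiquitin ligase gene silenced by an antisense RNA on the paternal chromosome in mice, carried 7 antisense clusters, of which 1 was above background. That cluster, LOC100912169, read 6.92, 7.06 and 6.91 in control and 7.004, 6.93 and 6.76 in diabetic arrays. NONMMUG038140 read 4.76, 4.84 and 5.33 in control and 4.41, 4.23 and 4.67 in diabetic arrays, below background but without overlap (difference -0.54, unadjusted p = 0.014). The other 6 differed by -0.39 to 0.35, and Ube3a by 0.02. Kcnq1 carried 5 antisense clusters (differences -0.36 to 0.11) and the imprinted growth factor receptor gene Igf2r another 5 (-0.17 to 0.00). Bdnf, encoding a neurotrophin, had 1, NONMMUG024119, at 2.91 to 3.30 in all arrays. Uchl1, a deubiquitinase gene of neurons, had 2, with differences of -0.13 and 0.15. Igf2, Six3, Fgf2 and Hif1a had 1 each, with differences of -0.18, -0.17, -0.10 and -0.17. Apart from LOC100912169, these clusters lay below background in every array, except LOC102546869 opposite Uchl1, which was above it in 2 diabetic arrays, and LOC102550251 opposite Kcnq1, which was above it in 1.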

How the data were processed

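Total RNA of 100 ng per rat was labelled and hybridised to a 1-colour rat transcriptome array, per the labels' protocols. Each deposited value is the log2 signal of a transcript cluster that the authors obtained with gene-level SST-RMA per the file headers, and the submitters' processing notes name RMA without a version. Neither the genome build nor further settings are stated there (not given in the sources used here), so positions are those of the deposited annotation. The 2 deposited tables held the same values in every cell. The deposited detection calls read absent for every cluster (423480 calls) and were not used, and 1738 control probe sets were left out of the tests. As arrays, the precision of these data is limited by their number, 3 per group.

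Antisense clusters were found by overlap of at least 1 bp from start to stop. Symbols of 2258 coding clusters were updated through RefSeq. Differences between diabetic and control rats were fitted with limma 3.58.1 in R 4.3.3 (lmFit and eBayes with an intensity trend) over 68842 clusters, with Benjamini-Hochberg adjustment over all of them. Unadjusted and adjusted p-values are 2-sided and come from this fit, or, for partners, from the same fit on the per-array difference between partners over 15425 overlapping pairs. The looser criterion is an unadjusted p under 0.05 with at least a 1.5-fold difference. The fits were tested on simulated data.

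The members and gene lists were chosen with earlier results of these data known. Named antisense clusters were, per direction, up to 10 of lowest p with at least a 1.5-fold difference and separate groups. To these were added the 8 brightest, up to 3 brightest per gene list, all those opposite 35 preset genes, per direction the 5 pairs of lowest p in the partner fit, and the 5 brightest opposite a gene past the looser criterion. Others were chosen after their values were seen: those of the pairs with both p under 0.05, the mitochondrial clusters and the bright clusters opposite Actb, Eef1a1, Ubb, Tmsb4x, Thy1 and Tubb2b. Alternatives covered array scaling, the variance model, array weights, the replicate number as a block, dim clusters, the definition of an overlap, and each array left out in turn. Some named items are not reported here.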

Additional observations from a re-analysis of the deposited data

How the results depend on the processing

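No antisense cluster passed the adjusted threshold under any of 13 alternatives, with lowest adjusted p between 0.22 and 0.97. The count at an unadjusted p under 0.05 ran from 252 to 794 over the 12 alternatives that kept all clusters, and was 151 of 1964 among the clusters above the median level. With each array centred on its median, 14 clusters met the looser criterion as higher, the median difference was 0.017, 44.0% of the clusters were lower and 54.4% of pairs had the same sign. Centring moved the median of all clusters from -0.04 to 0.03. After quantile normalization the median was 0.0047 and 48.5% were lower. Array weights gave 20 lower by the looser criterion, a 2-fold requirement gave 1 higher and 1 lower, and the clusters above the median level gave a share lower of 60.6%. Among the clusters above background, a setting chosen after seeing the data, 5 were higher by the looser criterion, 56.8% were lower and 53.7% of pairs had the same sign. Leaving out 1 array at a time gave 6 to 18 higher and 11 to 37 lower by the looser criterion. The higher count was 15 without control replicate 2 and 18 without diabetic replicate 2, and the lower count was 27 without control replicate 1, 37 without control replicate 2 and 30 without diabetic replicate 2. Over the same fits, the share lower was 57.6% to 71.8%, the median -0.08 to -0.02, the share of pairs with the same sign 51.2% to 53.3%, and the pairs past the adjusted threshold 0 to 2. The cause of these shifts was not tested. The replicate numbers did not pair the arrays: same-numbered arrays correlated at 0.04, -0.12 and -0.13 in their deviations from the group means. With the replicate number as a block, 0 clusters and 0 pairs passed, 359 clusters had an unadjusted p under 0.05, and 8 and 15 met the looser criterion as higher and lower. None of the 18 clusters named for their difference passed the adjusted threshold in these 13 alternatives. None changed sign either, but their choice by separate groups and at least a 1.5-fold difference largely fixed this. With separate groups, leaving out 1 array cannot reverse the sign. Of all 101 named clusters, 37 changed sign in at least 1 alternative. Signal over background limits the data, since 236 of 7055 clusters lay above it in every array.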

Other observations

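Several short antisense clusters lie close together over single genes. Ppil1, a prolyl isomerase of the spliceosome, carried 19 antisense clusters over a listed span of 349 kb, of which 15 had a lower mean in diabetic rats, and 14 after median centring. The most different, uc008bnq.2, spans 73 bases and read 9.49, 8.91 and 9.33 in control and 8.44, 8.98 and 8.55 in diabetic arrays (difference -0.59, unadjusted p = 0.016 by limma). Diabetic replicate 2 lay above control replicate 2, so the groups overlapped, and Ppil1 itself differed by -0.01. Tmem92 carried 17 antisense clusters, all under 100 bp, of which 11 were lower under both scalings. Limk1, a kinase that acts on the actin cytoskeleton, carried 12, of which 5 were above background and 10 were lower as deposited, against 4 after centring.

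A further pair of bright clusters had separate groups. The cluster listed as Rmrp, which lies opposite Parp2, a poly(ADP-ribose) polymerase of DNA repair, read 14.71, 14.62 and 14.83 in control and 14.32, 14.33 and 14.31 in diabetic arrays (difference -0.40, unadjusted p = 0.0084 by limma). A930015D03Rik, opposite the pheromone receptor gene Vom1r73, read 13.20, 13.30 and 13.02 in control and 13.56, 13.82 and 13.59 in diabetic arrays (difference 0.49, unadjusted p = 0.0069 by limma). Neither passed the adjusted threshold (adjusted p = 0.55 and 0.54), and all clusters described here were chosen after their values were seen.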
